A study of Mus musculus with 9 samples.

Results

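ChIC-Seq was carried out on primary muscle cells of the oviduct, taken from WT mice at day 2 of pregnancy. In this assay an antibody brings a protein A-MNase fusion to chromatin, and the fragments it cuts are sequenced. The 300 regions described here are the highest of 21426 stitched distal H3K27ac domains. Pooled H3K27ac peaks on the 19 autosomes and X that touched no window of 1 kb either side of a protein-coding transcript start were kept, which left 52045 of 64816 peaks, and peaks separated by gaps of up to 12500 bp were joined. Domains were then selected on the sum, over their peaks, of pileup times length, and ranks 1 to 300 were taken. The H3K27ac values of these domains therefore chose them and are given as a description.

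The series holds 3 H3K27ac, 3 H3K4me1 and 3 IgG samples, all of the same genotype, day and kind of cell preparation, so no genotype or treatment is compared. The titles of the IgG samples do not name WT, and whether samples shared 1 preparation is not stated. The mice were 8 to 12 weeks old per the labels and were mated with a stud male. Oviducts were digested with enzymes, and the cells were filtered, plated for some hours and fixed with formaldehyde. The preparation was a short culture enriched for smooth muscle, not a sort, and the labels do not say how many animals gave each sample. H3K27ac calls rested on 40551842 to 42040809 fragments per replicate, and H3K4me1 calls on 41891318 to 78891920 fragments, against IgG libraries of 3110985 to 3713369 fragments. A pooled H3K27ac peak lay at a promoter of 16 of 20 smooth muscle genes, among them Acta2, Myh11, Des and Tagln, while Cnn1, Actg2, Lmod1 and Mylk had none. The same was found for 5 of 18 epithelial genes, with none at Epcam or Cdh1, for 11 of 18 blood and endothelial genes, with peaks at Ptprc and Pecam1, and for 1 of 16 liver and neuron genes. Over all protein-coding genes the share was 56.7%. The part of other cell types in the domains was not tested.

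Acetylation of lysine 27 of histone H3 is laid down by the coactivators p300 and CBP at active enhancers and promoters. Monomethylation of lysine 4 is written mainly by the MLL3 and MLL4 complexes and is broad at enhancers and low at the centre of strong promoters. Long runs of clustered, heavily acetylated enhancers are often found near genes that define a cell type, and transcription factors such as AP-1, TEAD and RUNX family members bind short motifs within them.

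Some domains lay over microRNA genes, and the mature products of these genes are shown because several domains hold members of the same seed family. A microRNA gene was overlapped by 37 of the 300 domains, and 10 domains held 2 or more such genes. In all, 52 of 2195 microRNA genes were overlapped, or 2.37%. Of 49 looked up in RefSeq (GRCm38.p6), 37 had a mature sequence. Sequences run 5′ to 3′, and capitals mark the seed, bases 2 to 8.
let-7a-5p: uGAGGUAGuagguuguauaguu
let-7b-5p: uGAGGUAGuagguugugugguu
let-7c-5p: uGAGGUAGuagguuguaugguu
let-7d-5p: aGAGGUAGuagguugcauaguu
let-7f-5p: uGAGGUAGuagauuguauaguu
miR-99a-5p: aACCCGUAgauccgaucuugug
miR-100-5p: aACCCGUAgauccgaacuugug
miR-125b-5p: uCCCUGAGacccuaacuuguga
miR-15a-5p: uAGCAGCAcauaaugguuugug
miR-16-5p: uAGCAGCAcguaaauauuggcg
miR-23a-3p: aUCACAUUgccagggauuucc
miR-27a-3p: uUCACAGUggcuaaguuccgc
miR-24-3p: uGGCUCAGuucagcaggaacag
miR-199a-5p: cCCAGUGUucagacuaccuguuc
miR-199a-3p: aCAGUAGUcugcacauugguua
miR-214-3p: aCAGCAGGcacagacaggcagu

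The let-7 family, which restrains growth genes in differentiated cells, had 7 of its 11 annotated genes in 4 domains, beside 2.37% of all microRNA genes. Several of them lie side by side, so they are not 7 separate cases. The domain of rank 7 (chr15:85625725-85710319) ran over Mirlet7c-2 and Mirlet7b. The domain of rank 130 (chr13:48528504-48574389) ran over Mirlet7d, Mirlet7f-1 and Mirlet7a-1. Mirlet7c-1 lay with Mir99a and Mir125b-2 in the domain of rank 48 (chr16:77480055-77693665), over the host transcript Mir99ahg. On chromosome 9, Mir100 and Mirlet7a-2 lay in the domain of rank 23, and Mir125b-1 in the neighbouring domain of rank 129. Mir100 and Mirlet7a-2 lay within the span but outside the pooled H3K27ac peaks. Of the let-7 genes, Mirlet7c-1, Mirlet7f-1 and Mirlet7a-1 were under peaks of all 3 H3K27ac replicates and Mirlet7d under 1. Mirlet7c-2, Mirlet7b and Mirlet7a-2 were under none. The seed ACCCGUA was shared by miR-99a-5p and miR-100-5p in 2 domains, and CCCUGAG by the products of Mir125b-1 and Mir125b-2 in 2 domains. Mir15a and Mir16-1, which share the seed AGCAGCA, lay together in the domain of rank 124 over Dleu2.

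Domain overlap did not mean that a microRNA gene itself was acetylated. Of the 52 genes, 34 were touched by a pooled H3K27ac peak, 18 by peaks of all 3 H3K27ac replicates and 15 by peaks of all 3 H3K4me1 replicates. Mir23a and Mir27a were under peaks of all 3 replicates of both marks, and Mir24-2 under all 3 of H3K27ac and 2 of H3K4me1. Mir199a-2 and Mir214, on the strand opposite Dnm3 within Dnm3os, were under all 3 H3K27ac replicates, with 1 and 3 H3K4me1 replicates. Mirlet7b and Mir143 were under no replicate peak of either mark, although their domains ranked 7 and 78. Of the 37 microRNA genes listed for smooth muscle and mesenchyme, a list chosen with earlier results of these data known, 14 were overlapped, or 37.8%, beside 2.37% of all microRNA genes.

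For 5 domains the 300 bases at the core are shown, 1 each for a transcription factor of epithelial-mesenchymal transition, a focal adhesion protein, the domain with Pgr as nearest gene, an immediate early gene and the domain with the highest H3K4me1 cover. The core is centred on the longest run of H3K27ac-covered bases that lay in peaks of the largest number of the 6 replicate lists, which was 6 for each of these 5. Sequences are the plus strand of GRCm38, and capitals mark the motifs searched, on both strands. They were TGANTCA for AP-1, TGTGGT for RUNX, GGAATG for TEAD, TTGGCA for the NFI half-site, ACANNNTGT for the core of steroid receptor sites, CAGCTG for the E-box and AGATAA for factors of the GATA type, with the CArG box as well. The cores of Zeb2, Tns1 and Cdh11 are intronic in those genes, the core near Pgr is intronic in the noncoding gene Gm32014, and that of Fos is intergenic.
Zeb2, rank 26, chr2:45048478-45048777: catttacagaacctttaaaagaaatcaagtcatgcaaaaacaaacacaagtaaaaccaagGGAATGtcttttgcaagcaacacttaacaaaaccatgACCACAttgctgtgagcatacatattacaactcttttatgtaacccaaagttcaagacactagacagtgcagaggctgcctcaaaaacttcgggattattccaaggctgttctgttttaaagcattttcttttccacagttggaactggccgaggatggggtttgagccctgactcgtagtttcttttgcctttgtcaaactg
Tns1, rank 67, chr1:74069237-74069536: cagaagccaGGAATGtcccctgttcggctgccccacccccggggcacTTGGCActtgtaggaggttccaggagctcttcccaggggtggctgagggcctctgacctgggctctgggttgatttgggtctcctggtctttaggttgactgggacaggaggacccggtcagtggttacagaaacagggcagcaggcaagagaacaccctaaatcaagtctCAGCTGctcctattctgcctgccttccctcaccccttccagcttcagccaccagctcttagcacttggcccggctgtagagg
nearest Pgr, rank 93, chr9:8731097-8731396: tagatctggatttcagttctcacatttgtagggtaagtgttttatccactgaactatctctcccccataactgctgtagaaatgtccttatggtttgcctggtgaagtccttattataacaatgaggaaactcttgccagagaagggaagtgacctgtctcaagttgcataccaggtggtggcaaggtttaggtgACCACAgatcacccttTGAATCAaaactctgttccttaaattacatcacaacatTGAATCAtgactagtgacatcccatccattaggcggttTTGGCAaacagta
Fos, rank 98, chr12:85454499-85454798: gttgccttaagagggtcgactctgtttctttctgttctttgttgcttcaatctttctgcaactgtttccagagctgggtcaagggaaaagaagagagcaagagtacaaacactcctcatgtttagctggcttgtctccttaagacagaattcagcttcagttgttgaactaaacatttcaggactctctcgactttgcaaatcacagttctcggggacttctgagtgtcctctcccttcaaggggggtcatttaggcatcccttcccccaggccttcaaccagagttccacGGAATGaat
Cdh11, rank 204, chr8:102763194-102763493: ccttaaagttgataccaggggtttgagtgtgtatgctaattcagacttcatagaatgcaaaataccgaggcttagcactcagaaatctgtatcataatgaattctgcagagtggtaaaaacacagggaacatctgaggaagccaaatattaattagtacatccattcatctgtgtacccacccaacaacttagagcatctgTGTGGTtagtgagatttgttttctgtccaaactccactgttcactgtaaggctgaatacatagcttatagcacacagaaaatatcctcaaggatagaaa

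The core near Pgr held 2 AP-1 matches, 1 RUNX and 1 NFI half-site match, and that of Tns1 held a TEAD, an NFI half-site and an E-box match. Over all 300 cores, AP-1 letters were present in 14.3%, beside 14.6% of the cores of all other domains. RUNX letters were in 22.0% and 22.1%, TEAD in 18% and 17.8%, NFI half-sites in 17.3% and 16.6%, E-boxes in 16.7% and 15.6%, and GATA in 19.3% and 18.1%. The steroid receptor core was in 8.33% of the 300 cores and 12.2% of the others, and the CArG box, the binding site of SRF, in 0.667% and 1.94%. In the next 300 domains these shares were 11.0% and 1.67%. The CArG box was in only 2 of the 300 cores and 5 of the next 300. These shares are descriptions of exact letters in windows of 300 bases. In base composition the H3K27ac-covered sequence of the 300 domains (42.8% G or C, 20.6% repeat-masked) was close to that of all other domains (42.9% and 19.8%). The cores were intronic in 193 domains, intergenic in 80, exonic in 24 and over a UTR in 3. A core covered by all 6 lists was found in 298 of 300 domains, in 96.7% of the next 300 and in 27.1% of all other domains. Of the 6 lists, 3 are of the H3K27ac libraries that chose the domains, and a longer domain offers more bases in which such a run can lie, so these shares are not a finding about the 300.

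The 300 domains were 1.40% of all domains and held 9.08% of the distal peaks, 17.3% of the covered bases and 20% of the summed pileup times length. Together they spanned 24.0 Mb, or 0.912% of the 20 chromosomes, of which 42.9% was covered by peaks. Their span had a median of 70938 bp (quartiles 48996 and 94956 bp), with a median of 14 peaks and 29010 covered bp. The span follows the stitching gap, the median being 33464 bp with a gap of 5000 bp and 147673 bp with 25000 bp, and it was 38951 bp with H3K27ac peaks of −log10 p of at least 1.3. Among the next 300 domains the medians were 44542 bp, 9 peaks and 16644 bp, and 54.1% of all domains were a single peak. The mean pileup, in fragments scaled to the IgG depth, differed less, with medians of 5.27 and 5.13.

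**Figure D1:**
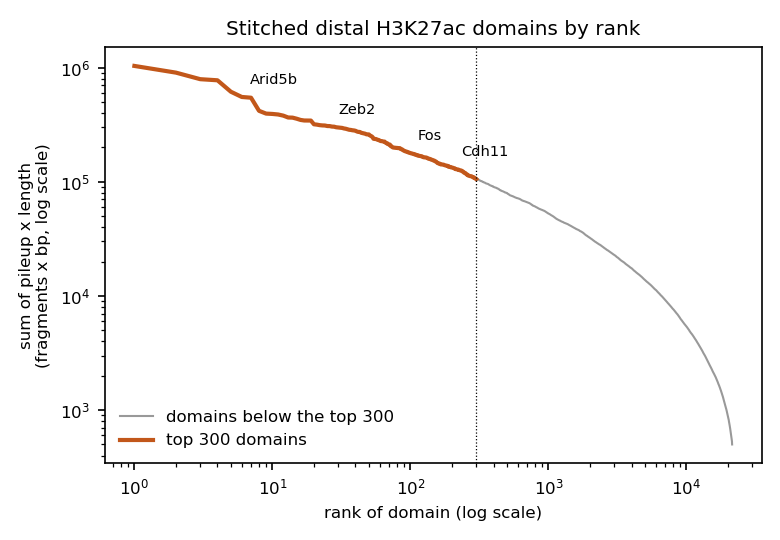
Sum of pileup times length against rank for all 21426 stitched distal domains, both axes on a log scale, with the top 300 in orange and a dotted line after rank 300. The curve has no step at the line, where the sum is 105655 just inside and 105650 just outside.

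The limit at rank 300 did not fall at a break. The last domains inside it lay in Arhgef17, with a sum of 106105, and in Bnc2, with 105655. The first domains outside it lay in Ddah1, with 105650, and in Fmn2, with 105617. The sum fell 2.63-fold from rank 1 to rank 10 and 3.72-fold from rank 10 to rank 300. The point at which the curve, scaled to 1 on both axes, has a slope of 1 lay at rank 769.

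A protein-coding gene body was overlapped by 233 of the 300 domains (77.7%), beside 76.7% of the next 300 and 57.7% of all other domains. Exactly 1 gene was overlapped by 186 domains and 2 or more by 47, and 146 had over 90% of their span within gene bodies. In all, 289 of 21728 protein-coding genes were overlapped, or 1.33%, and 346, or 1.59%, when the nearest gene was added for the 67 domains that overlapped none. Genes overlapped were long, with a median of 96.1 kb beside 17.4 kb over all protein-coding genes. Of the 67 domains outside protein-coding genes, 45 overlapped a long noncoding RNA gene and 22 did not, and the nearest protein-coding start lay at a median of 40338 bp. A promoter peak that the selection had left out lay within the span of 91 domains.

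Adhesion and cytoskeletal genes had the largest share of members overlapped among the gene lists, which were chosen with earlier results of these data known. For this and each list of protein-coding genes below, the share overlapped stands beside 1.33% of all protein-coding genes, whose median length was 17.4 kb, and a longer gene is more easily overlapped. Of 31 such genes 12 were overlapped, or 38.7%, and the median length of the list was 87.6 kb. Palld, an actin-bundling scaffold, lay under the domain of rank 16, and Vcl, which links integrins to actin, under rank 40. Cav2 lay under rank 36 with Tes, Myh9, the non-muscle myosin heavy chain, under rank 61, Tns1 under rank 67, and Cd44, the hyaluronan receptor, under rank 68. Over the Palld domain (chr8:61517554-61751157, 48 peaks) the H3K27ac replicates covered 59.4%, 51.7% and 32.4% of the pooled bases, the third replicate being the lowest, and the H3K4me1 replicates 61.4%, 65.2% and 65.3%. Over the Myh9 domain (chr15:77797578-77828210, 5 peaks) the H3K27ac values were 79.6%, 42.6% and 74.4% and the H3K4me1 values 69.4%, 43.9% and 84.1%, with replicate 2 the lowest in both marks.

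Of 20 smooth muscle genes, of median length 24.9 kb, 4 were overlapped, or 20%. Filip1l and Cald1, an actin-binding regulator of contraction, each lay under 2 domains, Filip1l under ranks 53 and 87 and Cald1 under ranks 122 and 238. Actn1, which crosslinks actin, lay under rank 141 and Synpo2 under rank 189. Over the first Cald1 domain the H3K27ac replicates covered 55.2%, 52.3% and 73.0% and the H3K4me1 replicates 51.8%, 38.9% and 68.2%. No domain overlapped Acta2, Myh11, Tagln or Des. Regulators of SRF and TEAD were represented by Mrtfa (rank 239) and Vgll4 (rank 259), 2 of 17 genes or 11.8% (median length 68.7 kb), and the gene nearest to rank 166 was Ccn2, at 100446 bp.

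Mesenchymal transcription factors were overlapped in 6 of 39 cases, or 15.4%, with a median length of 84.9 kb for the list. Among them were Zeb2 at rank 26, Tcf4 at rank 65, the homeobox factor Meis1 at rank 123, Nfia at rank 132 and Prrx1 at rank 152. The Zeb2 domain (chr2:44944049-45105465) had 40 peaks over 161417 bp, and the H3K27ac replicates covered 69.6%, 60.8% and 58.2% of its bases and the H3K4me1 replicates 75%, 76.2% and 76.9%. Those H3K4me1 values were close to each other.

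Matrix genes were overlapped in 5 of 41 cases, or 12.2%, with a median length of 49.1 kb for the list. One domain, of rank 11 (chr1:45346876-45489429), ran over the neighbouring fibrillar collagen genes Col3a1 and Col5a2, with H3K27ac cover of 90.6%, 73.9% and 69.2% and H3K4me1 cover of 69.5%, 73.4% and 67.1%. Fbn1, the microfibril protein, lay under ranks 158 and 241, Lamc1 under rank 199 and the basement membrane collagen Col4a1 under rank 258. Thbs1 was the nearest gene to rank 10, at 100284 bp, Dcn to rank 27, at 7116 bp, and Tnc to rank 190, at 474989 bp. The domain of rank 10 (chr2:117837444-118011592) was next to that of rank 18, and both ran over the noncoding gene 4930412B13Rik.

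Immediate early genes were overlapped in 4 of 30 cases, or 13.3%, and the median length of that list was 5.21 kb. They were Btg2 at rank 63, Fos at rank 98, the phosphatase Dusp1 at rank 156 and the nuclear receptor Nr4a1 at rank 257. The Fos domain (chr12:85436467-85492238) spanned 55772 bp with 11 peaks, and the H3K27ac replicates covered 60.9%, 56.2% and 39.6% and the H3K4me1 replicates 45.0%, 41.7% and 46.9%. Klf6 was the nearest gene to ranks 20 and 180, and Myc to ranks 55, 157 and 226. These 3 Myc-side domains lay 619337, 294503 and 16162 bp from the Myc start, and the 2 nearer ones ran over Pvt1. All 30 immediate early genes had a pooled H3K27ac peak at a promoter.

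Steroid and circadian genes were overlapped in 2 of 26 cases, or 7.69%, by the coactivator gene Ncoa3 at rank 227 and the clock repressor gene Nr1d1 with Thra at rank 281. The gene nearest to rank 93 was Pgr, the progesterone receptor, whose start lay 135899 bp away. This domain (chr9:8694600-8763934) had H3K27ac cover of 85.0%, 85.9% and 78.2% and H3K4me1 cover of 54.5%, 80.8% and 73.4%, the first H3K4me1 replicate being the lowest. Growth factor pathway genes were overlapped in 2 of 36 cases, or 5.56%, by the TGF-β coreceptor gene Tgfbr3 at rank 30 and Bmpr1a at rank 272. Prostaglandin genes were overlapped in 1 of 22 cases, or 4.55%, by Pla2g4a, the phospholipase that frees arachidonic acid, at rank 50. Of 25 long noncoding RNA genes listed, 22 were found in the annotation. Of these 22, 5 were overlapped, or 22.7%, beside 2.02% of all 9591 such genes. No gene of the epithelial, blood and endothelial, or liver and neuron lists was overlapped, of 18, 18 and 16, and at the share of 1.33% over all protein-coding genes lists of this size would hold few or none.

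Of the highest ranks after the first 5, rank 6 ran over Arid5b and Rtkn2 (chr10:68056387-68284745) with 42 peaks over 228359 bp. Rank 8 lay in Fndc3b, rank 9 in Pdlim5, which encodes an actinin-binding protein, rank 12 in Egfr, the EGF receptor gene, rank 13 in Zbtb20 and rank 15 in Akap13. Over the Egfr domain the H3K27ac replicates covered 63.4%, 54.4% and 50.3% and the H3K4me1 replicates 78.4%, 84.0% and 84.5%. Over the Fndc3b domain H3K27ac cover was 43.7%, 51.5% and 39.3% and H3K4me1 cover 80%, 77.8% and 68.5%, so in both domains every H3K4me1 replicate covered more than any H3K27ac replicate. Rank 22, nearest to Cwc22, had high cover by both marks, with 88.4%, 89.8% and 85.9% for H3K27ac and 75.3%, 81.7% and 88.0% for H3K4me1.

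**Figure D2:**
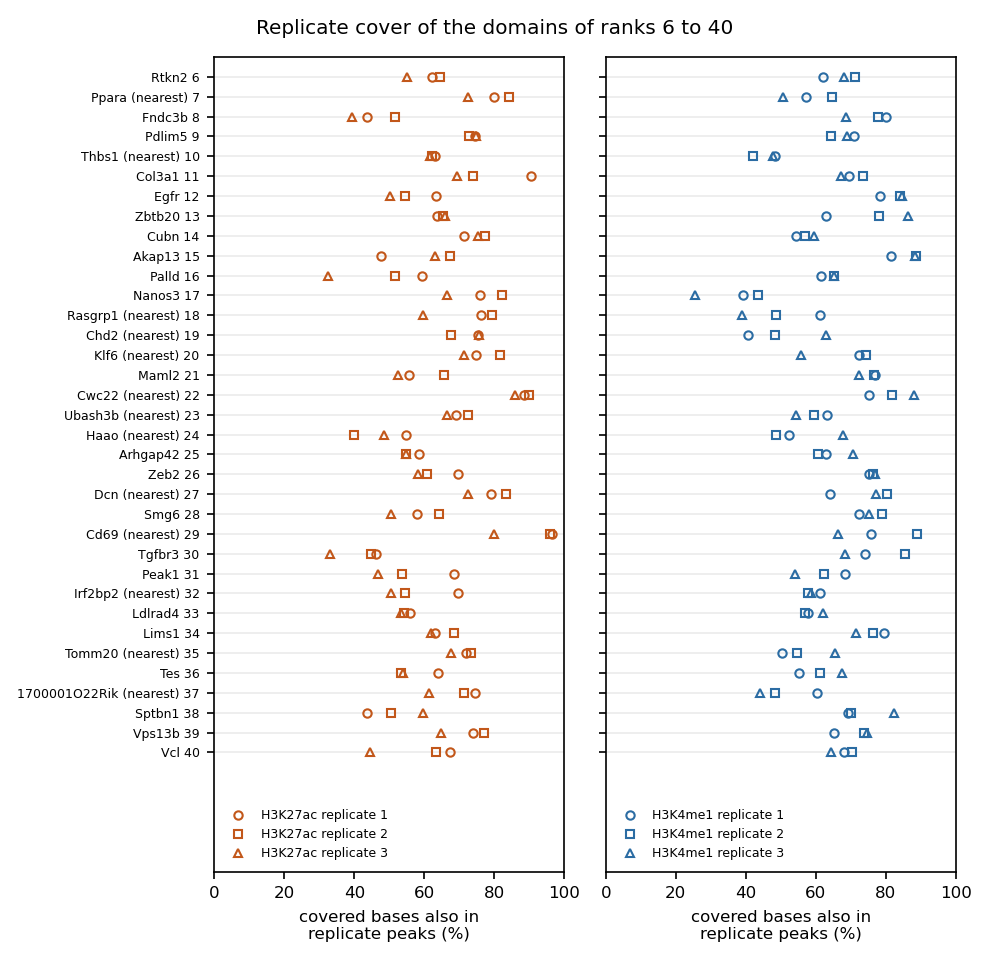
Share of the H3K27ac-covered bases of each domain of ranks 6 to 40 that lay in peaks of each H3K27ac replicate (orange, left) and each H3K4me1 replicate (blue, right), in percent, with domains labelled by an overlapped or nearest gene and rank. Rank 16, in Palld, runs from 32.4% to 59.4% in H3K27ac, while rank 26, in Zeb2, lies between 75% and 76.9% in H3K4me1.

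Several genes carried more than 1 domain. Over 21 protein-coding genes lay 2 domains each, separated by 12938 bp at Filip1l, 27059 bp at Akap13, 49345 bp at Adam12, 101789 bp at Dnm3 and 362039 bp at Lpp. Within 500000 bp of each other lay 107 domains in 48 groups, of which 8 held 3 or more. The largest group was on chromosome 12, where 5 domains (ranks 4, 1, 141, 162 and 64) lay over 1563062 bp from Rad51b past Actn1 and Dcaf5 to Susd6. A group on chromosome 16 held 4 domains by Ccdc80, Cd200 and Phldb2. By chromosome, the density ran from 0.117 domains per 10 Mb on X, with 2 domains near Msn and Tmsb4x, to 2.04 per 10 Mb on chromosome 16, with 20 domains.

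Peaks of all 3 H3K27ac replicates were present in each of the 300 domains, beside 99.7% of the next 300 and 47.0% of all other domains, and the pooled call that chose the domains used the same libraries. The median cover was 60.8%, 60.2% and 51.7% in replicates 1, 2 and 3. With each replicate counted by itself, cover was at least 50% in 3 replicates for 136 domains, in 2 for 86, in 1 for 57 and in none for 21. The replicates need not cover the same bases. The domains of the pooled call were also scored anew over the same peaks, with the pileup of 1 replicate list at a time. By these scores 253, 256 and 242 of the 300 were in the top 300, and 211 were in it for every replicate. Domains and peaks still came from all 3 replicates, so this is no independent ranking. None of the 3 lists placed 16 of them in the top 300, among them those in Lamc1, Pik3r1 and Fbn1 (rank 241) and that in Itgav, the integrin αV gene. The Pik3r1 domain of rank 270 had H3K27ac cover of 37.2%, 23.5% and 35.9% and ranked 576, 1174 and 463 by replicate.

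H3K4me1, which the selection did not use, covered 60.9%, 62.4% and 61.4% of the H3K27ac-covered bases of the 300 domains in its 3 replicates (61.6% ± 0.737, SD, n = 3), as a mean over domains, and 34.8% when H3K4me1 peaks were limited to −log10 p of at least 1.3. The next 300 domains had 61.0%, 61.6% and 60.4%. The differences were -0.06, 0.77 and 1.00 percentage points, with a mean of 0.57 ± 0.555 (SD), positive in 2 of 3 lists (exact two-sided sign-flip test, p = 0.500, adjusted p = 0.500). Its direction turned under 4 of the settings tried, to between -0.64 and -1.54 points. Over all other domains cover was 49.4%, 51.0% and 50.1%, lower by 11.42 ± 0.0925 points (SD) and in 3 of 3 lists (exact p = 0.25, adjusted p = 0.375). With 3 lists the smallest p this test can give is 0.25, so no difference could pass 0.05. The size of the difference from all other domains depended on the setting, being 3.92 points with H3K27ac peaks of −log10 p of at least 1.3 and 21.35 points with H3K4me1 peaks filtered in that way. In comparisons added after the data were seen, it was 5.68 points with cover pooled over bases, and 2.2 points when the other domains were limited to the 2305 of at least 5 peaks. The rest of the span, outside the distal H3K27ac peaks, includes the promoter peaks that the selection left out. Such peaks lay within 91 of the 300 domains, and their number in the next 300 is not given here. In this rest of the span H3K4me1 covered 22.0%, 21.2% and 19.6% in the 300 domains. It covered 24.0%, 23.7% and 21.9% in the next 300. The mean difference was -2.28 ± 0.252 points (SD), negative in 3 of 3 lists (exact p = 0.25, adjusted p = 0.375). That difference was -0.93 with a stitching gap of 5000 bp, -0.04 with 25000 bp, and -0.43 and -0.44 with filtered H3K27ac or H3K4me1 peaks, for which the exact p was 0.75, 1.00, 0.50 and 0.50.

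**Figure D3:**
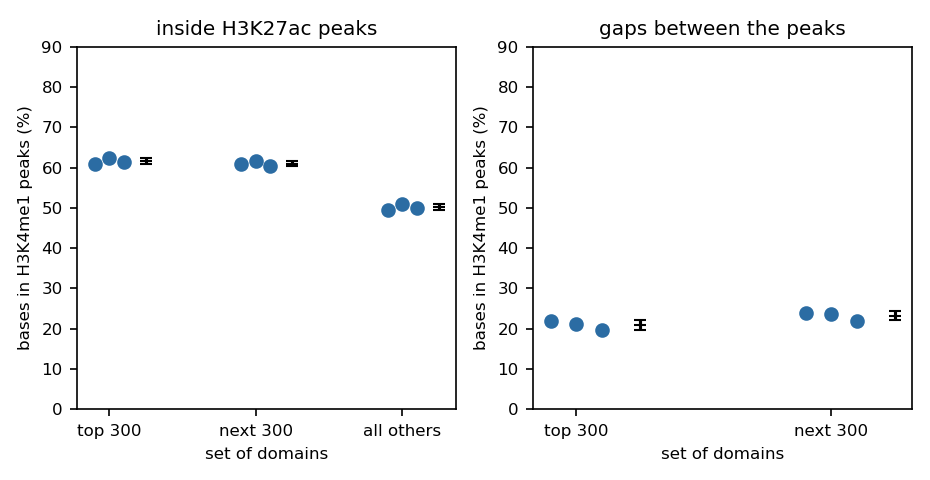
Percent of bases in H3K4me1 peaks, as a mean over domains, for each of the 3 H3K4me1 replicates (points) with mean and SD (black). The left panel is inside the distal H3K27ac peaks. The right panel, titled as gaps, is the rest of the span, which includes promoter peaks left out by the selection. Inside the peaks the top 300 and the next 300 both lie between 60.4% and 62.4%, and all others between 49.4% and 51.0%.

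All 300 domains had peaks of all 3 H3K4me1 replicates. Mean cover was at least 50% in 239 domains and below 25% in 3. The pooled H3K4me1 list covered at least 90% of the bases of 141 domains and at least 50% of 292. By that list the median cover was 89.0% in the 300 domains, 90.2% in the next 300 and 93.6% in all other domains, so by its median the 300 had the lowest cover, whereas the lower quartile was 80.9%, 76.6% and 54.6% and the mean of the 300 was 1.23 points above that of the next 300. The highest means were 94.0% in Cdh11, a mesenchymal cadherin gene (rank 204), 91.0% in Pik3r1 (rank 270) and 89.6% in Bnc2 (rank 300). In the Cdh11 domain the replicates gave 93.1%, 95.4% and 93.6%, and H3K27ac cover was 71.0%, 73.2% and 46.6%. The Cdh11 domain also had one of the lowest mean pileups, 3.65.

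The lowest H3K4me1 cover was in the domain of rank 271 (chr10:120613595-120646444), with 5.12%, 2.37% and 2.2%, whereas its H3K27ac cover was 43.5%, 60.4% and 45.4%. It lay over the noncoding gene 4930471E19Rik, with the nearest protein-coding start, that of Hmga2, at 137126 bp. The domain of rank 209 at Zbtb38 had 11.4%, 7.25% and 5.41%, and that of rank 290, nearest to Sgk1, had 21.9%, 15.2% and 10.6%. In all 3 domains each H3K4me1 replicate was below each H3K27ac replicate.

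**Figure D4:**
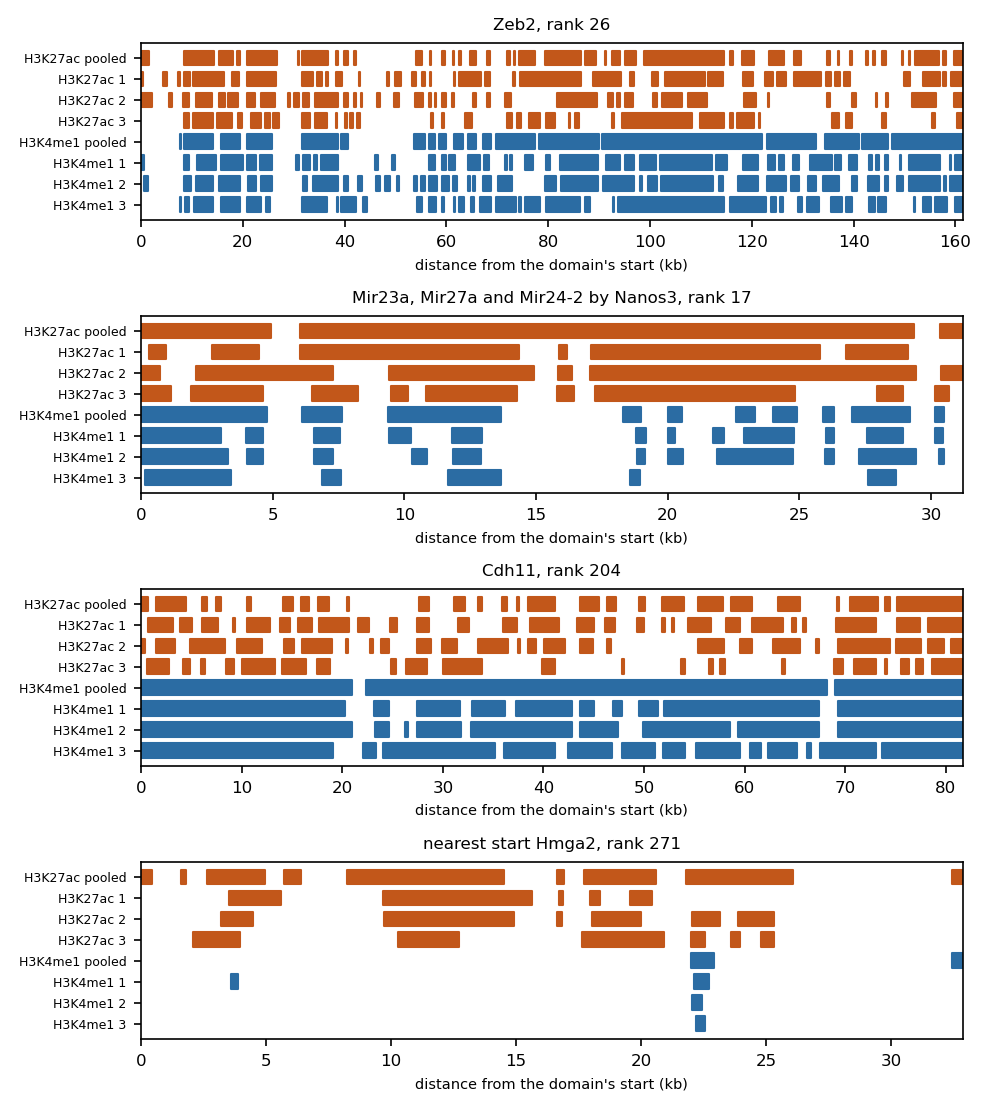
Peaks of the pooled and replicate H3K27ac (orange) and H3K4me1 (blue) lists over 4 domains, as bars against the distance from the start of the domain in kb. H3K4me1 peaks fill most of the Cdh11 domain, where the replicates cover 93.1% to 95.4% of the acetylated bases, and are few in the domain of rank 271, where they cover 2.2% to 5.12%.

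Mean pileup entered the selection, which ties it to length among the 300 domains (Spearman's rank correlation with span, -0.53), so its relation to H3K4me1 is given as a description. In the 21 domains with a mean pileup of at least 8, H3K4me1 cover was 55.7%, 53.6% and 52.8% by replicate, beside 61.3%, 63.0% and 62.1% in the other 279. The 21 include the single short peak of rank 114, described below, with H3K4me1 cover of 87.7%, 77.8% and 89.2%. Spearman's rank correlation over the 300 domains was -0.26 with the replicate mean and 0.01 with the pooled list, so the pooled call did not show it. The domain of rank 17, over Mir23a, Mir27a and Mir24-2, had the highest mean pileup of those of the 300 with more than 1 peak, 11.8, with H3K4me1 cover of 39.2%, 43.5% and 25.5%. Within 250 bases of the 87 starts of long noncoding RNA genes that lay in the acetylated bases, H3K4me1 covered 64.5%, 60.5% and 53.0%, beside 62.1%, 64.5% and 63.1% of all acetylated bases of the domains.

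**Figure D5:**
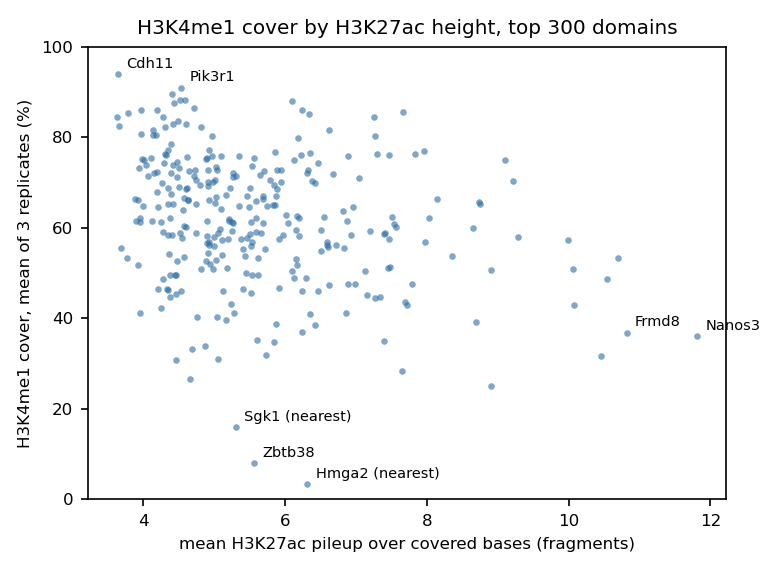
H3K4me1 cover (mean of 3 replicates, percent) against mean H3K27ac pileup over covered bases (fragments), 1 point per domain, without the domain of 1 short peak. The domain at Nanos3 is farthest right at 11.8, and the 3 lowest points are those of ranks 209, 271 and 290.

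One domain was unlike the others of the 300, although the next 300 also reached a mean pileup of 488 and a span as short as 165 bp. Rank 114 (chr9:35305225-35305575) was a single peak of 351 bp with a mean pileup of 481, while the next highest mean among the 300 was 11.8. Its core window was 100% repeat-masked and lay in an intron of the noncoding gene Gm33838. H3K27ac replicates covered 99.1%, 94.9% and 100% of it and H3K4me1 replicates 87.7%, 77.8% and 89.2%. The next shortest domain, nearest to Irf2bpl (rank 266), spanned 14216 bp.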

How the data were processed

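ChIC-Seq of primary oviductal muscle cells gave 6 replicate peak lists and 2 pooled lists, and the 3 IgG samples entered only as controls. Per the labels, reads were handled with cutadapt, Bowtie2 and MACS2 on GRCm38.p5; other read filters are not given in the sources used here. Per the file headers, the authors called broad paired-end peaks with MACS 2.2.7.1 at p-value cutoffs of 0.05 and 0.1, scaling the larger library to the smaller. The deposited pileup is a coverage signal in scaled fragments, the deposited fold enrichment is a ratio to local background, and the deposited p-values and q-values are on the −log10 scale. H3K27ac replicates were called against IgG replicates 1, 2 and 3 in turn, and H3K4me1 replicates against IgG replicates 2, 2 and 3, so lists that share a control are not fully independent. The IgG depth, 3110985 to 3713369 fragments, limits the precision of every call.

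Gene models were GENCODE release M21. All peak ends lay within the GRCm38 chromosomes, and no list of problematic regions was applied. Overlap meant at least 1 bp. H3K4me1 cover is the percent of the H3K27ac-covered bases of a domain that lie in H3K4me1 peaks. Its 3 differences between sets of domains were tested by an exact two-sided sign-flip permutation over the 3 lists (8 assignments), with Benjamini-Hochberg adjustment. Nothing in the labels says that replicates came from separate animals, so p-values measure only the spread between these samples. Named genes were those of the lists under a domain in order of rank, genes of ranks 6 to 40, and the 3 most extreme domains of each measure; a few others were named after their values were seen. The domains and gene lists were chosen with earlier results of these data known. Scripts used Python 3.11.15 with numpy 2.4.6 and pandas 2.3.3 and were tested on simulated peaks. Stitching gap, promoter window, ranking measure, p-value filter and left-out replicates were varied. 1 gene of the lists is counted but not reported by name here.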

Additional observations from a re-analysis of the deposited data

How the results depend on the processing

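The H3K4me1 cover of the 300 domains, 61.6%, was 62.7% with a stitching gap of 5000 bp, 63.1% when domains were ranked by covered length, 62.8% by fold enrichment times length and 63.1% with pooled H3K27ac peaks of −log10 p of at least 1.3. It was 34.8% with H3K4me1 peaks of −log10 p of at least 1.3, 85.6% with the pooled H3K4me1 list and 39.8% of the whole span. The difference from the next 300 domains, 0.57 points, changed sign to -0.64 with a promoter window of 3000 bp, -1.17 ranked by covered length, -1.54 by fold enrichment times length and -0.95 with the filtered H3K27ac peaks, and the cause was not tested. The difference from all other domains stayed positive under the 13 alternatives run but ranged from 2.2 to 21.35 points. The difference from the next 300 in the rest of the span, outside the distal peaks, stayed negative under 11. It ran from -3.51 points ranked by fold enrichment times length to -0.04 with a gap of 25000 bp. Median span was 33464 bp with a gap of 5000 bp, 147673 bp with 25000 bp and 38951 bp with the filtered peaks, which left 13218 domains. With a gap of 25000 bp 475 protein-coding genes were overlapped. At least 50% cover in each H3K27ac replicate held for 136 domains. Between 222 and 288 of the 300 domains were overlapped by the top 300 under other settings of stitching, window, ranking or filter, and 251 to 259 were kept with 1 H3K27ac replicate left out. In a core window of 200 bases the NFI half-site was found in 11.0% of the 300 domains and 11.3% of all other domains, the steroid receptor core in 4.33% and 8.16%, and the CArG box in 0.333% and 1.25%. No paired analysis was possible because no test compares samples of different groups, which the replicate numbers could pair, and the sign-flip test already takes its differences within each H3K4me1 list.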
